A study of Mus musculus with 6 samples.

Results

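Tetraspanins are small membrane proteins that cross the bilayer several times and bind integrins, immunoglobulin-superfamily proteins and proteases beside them in the membrane. The 10 described here were Cd9, Cd63, Cd151, Cd81, Cd82, Cd37, Cd53, Tspan9, Tspan32 and Tspan33. They were chosen by name, on earlier results of these same arrays, so every FOG1 ki/ki against control value below is a description and is not independent support for any pattern. Of the 10, 9 had at least 1 probe set that the array annotation assigned to that gene alone, out of 18193 genes with such a probe set, and together they had 22 probe sets. Cd63, the lysosomal and dense granule tetraspanin used as a marker of platelet activation, had no such probe set in the annotation used here and was not analysed here.

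The arrays measured RNA of mouse megakaryocytes, the cells that shed platelets, which had been grown from fetal liver cells with thrombopoietin and isolated on an albumin gradient. All mice had a mixed C57BL/6xSv129 background. The 3 control arrays came from 2 FOG1+/- cultures, replicates 1 and 2, and 1 FOG1+/+ culture, replicate 3. Among controls the FOG1+/+ genotype therefore cannot be told apart from replicate 3. The other 3 arrays, replicates 1 to 3, came from cultures labelled FOG1-/- ki/ki, called FOG1 ki/ki here, and what the knocked-in allele encodes is not given in the labels. FOG1 binds GATA transcription factors and acts as their cofactor. Replicates were biological according to the labels, which leave out the number of animals behind each culture.

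In platelets and megakaryocytes, tetraspanins gather receptors into microdomains: CD9 and CD151 lie beside integrins, and TSPAN9 lies near the collagen receptor glycoprotein VI. A separate branch, the C8 tetraspanins with their extra cysteines, which includes TSPAN33, escorts the protease ADAM10 out of the endoplasmic reticulum and sets which proteins it cleaves. Several members, among them CD37 and CD53, are confined largely to blood cells.

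Promoter windows of all 10 genes were in the RefSeq table of build GRCm38.p6, 17 windows in all, each running from 250 bases before a transcription start to 50 after it. They were searched on both strands for the GATA words AGATAA and AGATAG and the words TGATAA and TGATAG, because FOG1 acts with GATA factors. A word was found in 4 of the 17 windows, those of Cd53, Cd37 and Tspan32 and 1 of the 4 windows of Tspan9, against 29.8% of all 32851 windows in the table. The windows of Tspan33 and Tspan32 are shown because the first gene had the largest difference between the groups and the second has the most words in its only window with almost no difference. The Tspan33 window, chr6:29693964-29694263 on the plus strand, held none of the 4 words. The Tspan32 window, chr7:143004796-143005095 on the plus strand, held 2, starting at -212 and -105 from the start, in capitals below. The first is TTATCT, the reverse strand of AGATAA.
Tspan33: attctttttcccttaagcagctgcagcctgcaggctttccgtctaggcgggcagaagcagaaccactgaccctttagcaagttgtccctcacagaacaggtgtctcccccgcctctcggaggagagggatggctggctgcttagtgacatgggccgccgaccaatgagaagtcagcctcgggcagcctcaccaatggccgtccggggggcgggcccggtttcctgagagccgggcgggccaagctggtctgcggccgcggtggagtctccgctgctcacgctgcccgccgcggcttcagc
Tspan32: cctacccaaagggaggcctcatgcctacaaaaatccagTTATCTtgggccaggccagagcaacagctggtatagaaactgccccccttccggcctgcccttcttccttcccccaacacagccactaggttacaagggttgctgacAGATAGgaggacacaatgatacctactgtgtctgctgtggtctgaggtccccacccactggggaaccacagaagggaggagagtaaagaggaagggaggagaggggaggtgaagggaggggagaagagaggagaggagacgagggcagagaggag
A match describes letters only, and neither a match nor its absence says whether a GATA factor binds there. Tspan32 is the next coding gene to Cd81 on chromosome 7, Tspan9 lies next to Tspan11 on chromosome 6, and Cd82 lies next to Tspan18 on chromosome 2.

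The cultures carried megakaryocyte transcripts on every array. The labelled cell type was checked with 13 marker genes, of which 11 had a probe set and passed the filter on dim probe sets. Their summed signal lay between 20544 and 27479 on the control arrays and between 17931 and 23961 on the FOG1 ki/ki arrays. All 11 were below control, but Pf4, Ppbp and Itga2b were nearly level, with log2 differences of -0.003, -0.05 and -0.07 and pairs of mixed sign. The largest differences were those of Gp6 at -1.35 and Tubb1 at -1.01. In 8 all 3 pairs were lower, against 19.5% of all genes tested. In 3 the groups did not overlap, against 4.94% in that direction. Transcripts of other cells were also present, and their signal varied between the groups, between replicates or both. Mast cell markers summed to 3388, 3267 and 267 in controls 1 to 3, the last being FOG1+/+, and 6454 to 6811 in FOG1 ki/ki. All 9 tested mast cell genes were above control. Macrophage markers summed to 10195 to 17879 in controls and 5182 to 13610 in FOG1 ki/ki, with all 13 tested genes below control. Fibroblast markers summed to 1902, 8317 and 293 in controls 1 to 3 and 1219, 3487 and 214 in FOG1 ki/ki 1 to 3. All 10 tested fibroblast genes were below control, but in both lists the sums of the groups overlapped. Median differences in pairs 1, 2 and 3, on the log2 scale explained below, were -0.17, -0.43 and -0.21 for megakaryocyte markers, -1.84, -0.44 and -0.34 for macrophage markers, and -0.51, -1.22 and -0.17 for fibroblast markers. They were -0.84, -0.12 and -0.54 for lymphoid markers and -0.52, -0.04 and 0.15 for neutrophil markers. The tetraspanins are expressed in many of these cells, and the part of the other cells in the results below was not tested. In such bulk samples fewer cells of a type and less RNA per cell cannot be told apart.

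**Figure D1:**
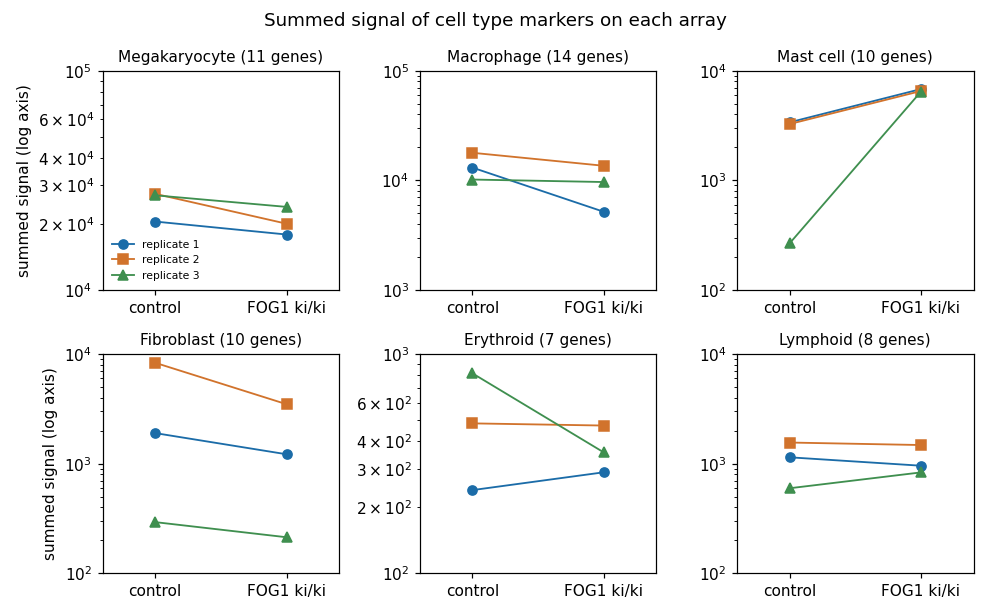
Summed signal (log axis) of the markers of 6 cell types on each array, with same-numbered control and FOG1 ki/ki arrays joined by a line. Mast cell markers lie at 3388, 3267 and 267 on control arrays 1 to 3 and between 6454 and 6811 on the FOG1 ki/ki arrays. Megakaryocyte markers lie at 17931 or above on every array.

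Values are signals as deposited, and each gene stands by its brightest probe set. Differences are given as log2(signal + 16), FOG1 ki/ki minus control, with the standard error from limma fitted without pairing. A pair is the 2 arrays of equal replicate number. Adding 16 understates the difference of dim genes. A signal is not comparable between probe sets, so no tetraspanin is ranked against another by level.

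Cd9, a partner of integrins and one of the major tetraspanins of the platelet surface, differed little. Its signals were 2766, 3351 and 3450 in controls 1 to 3 and 2512, 2785 and 3429 in FOG1 ki/ki 1 to 3. The groups overlapped, with means of 3189 ± 370 and 2909 ± 471 (SD, n = 3 each) and a difference of -0.14 (SE 0.14). The pair differences were -0.14, -0.27 and -0.01, so the replicate 3 arrays were almost level. Single arrays left out moved the difference between -0.26, without FOG1 ki/ki 3, and -0.04, without FOG1 ki/ki 1.

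Cd151, a partner of laminin-binding integrins and of the platelet integrin alphaIIb-beta3, was below its control in every pair. Its brightest probe set, 1456085_x_at, read 1056, 2013 and 1956 in controls and 794, 1421 and 1434 in FOG1 ki/ki. The replicate 1 arrays were the lowest of both groups, so the groups overlapped, and the difference was -0.45 (SE 0.31). The pair differences, -0.40, -0.50 and -0.44, lay close together. The difference between the groups was -0.75 without control 1, -0.29 without control 2 and -0.17 without FOG1 ki/ki 1.

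The other 3 Cd151 probe sets past the filter also pointed down. Probe set 1451232_at read 487, 632 and 702 in controls and 343, 361 and 333 in FOG1 ki/ki, a difference of -0.77 (SE 0.21), and here every FOG1 ki/ki array was below every control. Probe set 1424093_x_at, at -0.73 (SE 0.22), also had groups that did not overlap, whereas those of 1437670_x_at, at -0.53 (SE 0.29), did. Over the 4 probe sets the FOG1 ki/ki signal was 0.703 to 0.752 of its control in pair 1, 0.570 to 0.706 in pair 2 and 0.460 to 0.733 in pair 3. Probe sets of one gene share the RNA and are not replicates, and those ending in _x_at hold probes that can also bind other sequences. The remaining 2 Cd151 probe sets were under the filter.

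Tspan9, the tetraspanin found near glycoprotein VI in platelets, was also below control in every pair. Its signals were 644, 1173 and 1888 in controls and 487, 761 and 838 in FOG1 ki/ki. Within each group the replicate 1 array was the lowest and the replicate 3 array the highest. The spread of controls was wide, 1235 ± 625 against 696 ± 185 (SD, n = 3 each), and the groups overlapped. The difference of -0.72 (SE 0.38) ranged from -0.39 in pair 1 to -1.16 in pair 3, the pair that holds the FOG1+/+ control. Without that control it was -0.35, and without control replicate 1 it was -1.12.

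Tspan32, a blood-cell tetraspanin that binds alphaIIb-beta3, was nearly level. It read 1099, 1053 and 1971 in controls and 1232, 1220 and 1812 in FOG1 ki/ki, a difference of 0.08 (SE 0.27). The replicate 3 array was the highest of both groups, and the pair differences of 0.16, 0.21 and -0.12 did not share a sign. Its sign turned when control 1 (-0.04), control 2 (-0.07) or FOG1 ki/ki 3 (-0.10) was left out, and the difference was 0.37 without control 3. A dimmer probe set, 1431289_at, differed by -0.26 (SE 0.43), nearly all of it in pair 3.

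Cd81, a widely expressed partner of integrins and immunoglobulin-superfamily proteins, was lower in all 3 pairs. It read 1608, 2771 and 2476 in controls and 1209, 1212 and 1718 in FOG1 ki/ki. The lowest control lay under the highest FOG1 ki/ki array, so the groups overlapped, with means of 2285 ± 605 and 1380 ± 293 (SD, n = 3 each). The difference was -0.70 (SE 0.23), with pair differences of -0.41, -1.18 and -0.52.

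Cd82, a tetraspanin that restrains cell migration and was first known as a metastasis suppressor, was dim. It read 96.4, 78.8 and 22.5 in controls and 34.4, 58.0 and 16.3 in FOG1 ki/ki, a difference of -0.59 (SE 0.48). The replicate 3 array was the lowest of both groups, and the pair differences were -1.16, -0.36 and -0.26. Without control replicate 3 the difference was -1.06, without control replicate 1 it was -0.29, and without FOG1 ki/ki replicate 3 it was -0.28.

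Cd53, a tetraspanin of leukocytes, read 2106, 2312 and 1215 in controls and 1253, 2086 and 1054 in FOG1 ki/ki. The groups overlapped over most of their range, and the difference was -0.36 (SE 0.31). Its pair differences were -0.74, -0.15 and -0.20. The difference between the groups was -0.16 without FOG1 ki/ki 3, -0.19 without control 2, and -0.65 without control 3 or without FOG1 ki/ki 2.

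Cd37, another leukocyte tetraspanin, had the smallest difference of the 9. It read 928, 1018 and 921 in controls and 922, 1011 and 1056 in FOG1 ki/ki, a difference of 0.06 (SE 0.15). The pair differences were -0.01, -0.01 and 0.19, and without both replicate 3 arrays the difference was -0.01.

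**Figure D2:**
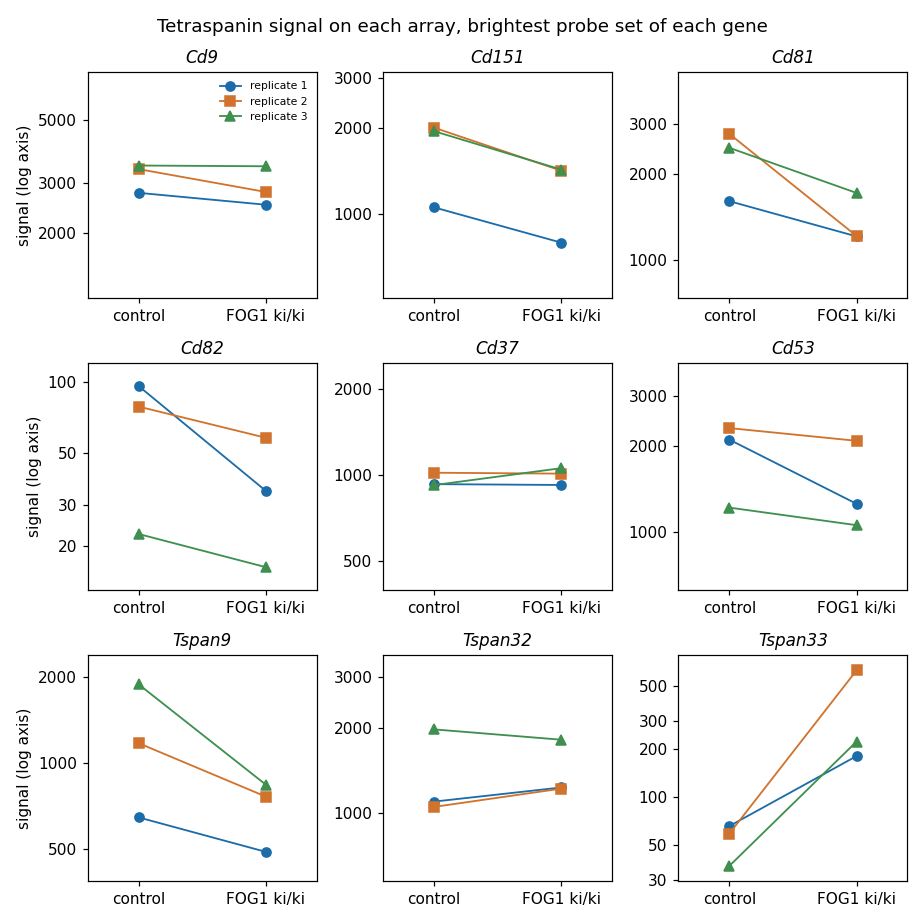
Signal (log axis) of the brightest probe set of the 9 tetraspanins with a probe set, on each array, with same-numbered control and FOG1 ki/ki arrays joined by a line. Lines of Tspan33 climb from 36.9 to 65.7 in controls to 181 to 624 in FOG1 ki/ki, while those of Cd9, Cd37 and Tspan32 stay nearly flat.

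Tspan33 had the largest difference of the 9 genes, and it was higher in FOG1 ki/ki. It is a C8 tetraspanin and ADAM10 partner, known for its expression in erythroid progenitors and activated B cells. Its brightest probe set, 1455618_x_at, read 65.7, 58.9 and 36.9 in controls and 181, 624 and 223 in FOG1 ki/ki. All FOG1 ki/ki arrays were above all controls, and FOG1 ki/ki replicate 2 was by far the highest. The means were 53.8 ± 15.0 and 343 ± 245 (SD, n = 3 each), a ratio of 6.36, and the difference was 2.18 (SE 0.46). Of the 11284 genes tested, 23 had a larger difference. The pair differences were 1.27, 3.09 and 2.18, and leaving out FOG1 ki/ki replicate 2 lowered the difference to 1.66.

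The other 3 Tspan33 probe sets pointed the same way. Probe set 1451608_a_at read 55.0, 36.6 and 39.7 in controls and 151, 461 and 251 in FOG1 ki/ki, a difference of 2.23 (SE 0.41). Probe set 1425157_x_at read 17.1, 8.70 and 7.88 in controls and 45.1, 115 and 50.4 in FOG1 ki/ki, a difference of 1.59 (SE 0.35). In all 4 probe sets FOG1 ki/ki replicate 2 was the highest array and the groups did not overlap. The dimmest, 1451609_at, read at most 2.0 in controls and 19.0, 46.3 and 18.6 in FOG1 ki/ki, a difference of 1.26 (SE 0.28). It passed the filter only through its FOG1 ki/ki arrays, so its direction and lack of overlap add no support. Over the 4 probe sets the FOG1 ki/ki signal was 2.64 to 9.50 times its control in pair 1, 10.6 to 33.1 times in pair 2 and 6.04 to 13.8 times in pair 3, the highest of each from the dimmest probe set. Control signals that low are near background, where MAS5 values are noisy.

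Markers of cells known to express Tspan33 are given beside it. Of 11 erythroid markers, 7 had a probe set, and their summed signal was 240 to 817 in controls and 289 to 472 in FOG1 ki/ki. Of these 7, 5 were under the filter, and most of the sum was Epor, the erythropoietin receptor. Epor read 188, 451 and 801 in controls and 176, 296 and 260 in FOG1 ki/ki. The globin gene Hba-a1 and Alas2, the erythroid enzyme of haem synthesis, read at most 1.90 on any array. Klf1, the erythroid transcription factor, read 43.7, 20.1 and 3.04 in controls and 101, 162 and 78.7 in FOG1 ki/ki, a difference of 1.86. Epor differed by -0.75. The 8 lymphoid markers with a probe set summed to 597 to 1560 in controls and 833 to 1480 in FOG1 ki/ki. Among the B cell genes of that list, Cd79a was under the filter, Cd79b differed by 0.08, Blnk by -1.03 and Ebf1 by -1.0. In pairs 1, 2 and 3 the median difference was 0.81, 0.73 and 1.5 for the 9 mast cell markers tested. It was 0.44, 0.86 and 0.37 for the 2 erythroid markers tested, Klf1 and Epor, which went opposite ways. Neither that median nor the erythroid sum stands for erythroid content as a whole. The part of any of these cells in the Tspan33 difference was not tested.

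**Figure D3:**
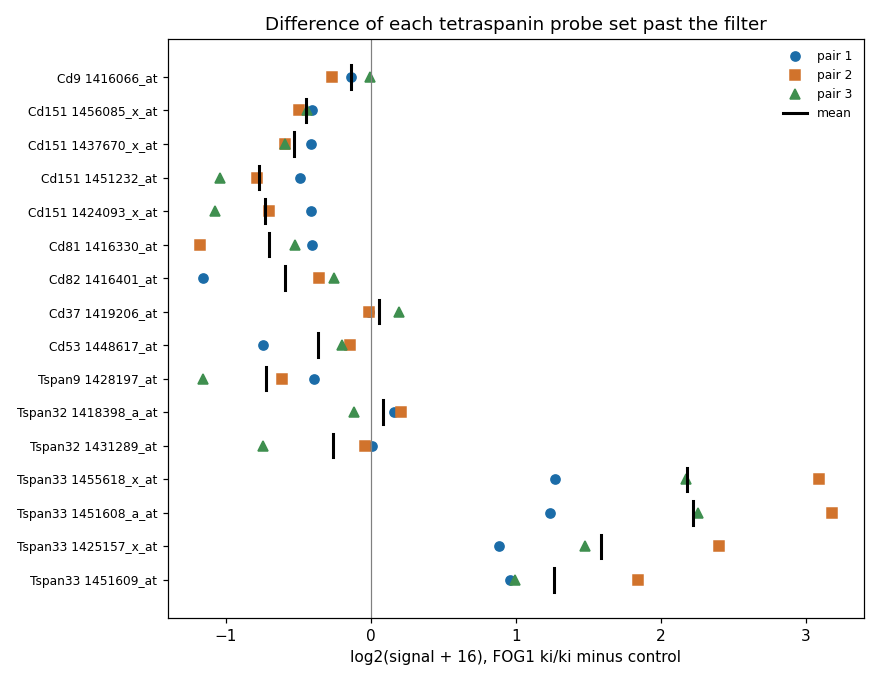
Difference in log2(signal + 16), FOG1 ki/ki minus control, for the 16 tetraspanin probe sets past the filter, with a symbol for each pair and a bar for the mean. The 4 Tspan33 probe sets lie to the right of 0 in every pair and the 4 Cd151 probe sets to the left.

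In all, 6 of the 9 genes were below control and 3 above it. In 6 genes, Cd9, Cd151, Cd81, Cd82, Cd53 and Tspan9, all 3 pairs were lower, where 19.5% of all genes tested had 3 lower pairs. In 1, Tspan33, all 3 were higher, against 24.7% of genes tested. The groups did not overlap for 1 gene in the higher direction, Tspan33, where 6.30% of genes tested did so, and for 0 in the lower direction, where 4.94% did. That second count rested on single arrays. It became 3 (Cd151, Cd81 and Tspan9) when control 1 was left out, 2 (Cd53 and Cd82) when control 3 was left out, and 1 (Cd81) when FOG1 ki/ki 3 was left out. Without control replicate 3 Tspan32 joined Tspan33 in the higher direction. The median difference was -0.36 over the 9 genes and 0.03 over the genes tested, and the median absolute difference was 0.45 against 0.20. Because the genes were named with this contrast known, nothing is read from these counts.

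Of the 22 probe sets, 16 passed the filter, which kept the brighter 50% of probe sets by mean over the 6 arrays. The filter lay at a mean signal of 10.9, with the lowest member past it at 14.8 (Tspan33 1451609_at) and the highest under it at 8.46 (Tspan9 1441968_at). The 6 probe sets under it, 2 of Cd151 and 1 each of Cd82, Cd37, Cd53 and Tspan9, had signals of 0.0907 to 19.1 and differences of -0.35 to 0.21. Tspan33 1451609_at passed only through its FOG1 ki/ki arrays.

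No tetraspanin probe set passed the test over all 22518 probe sets, in which limma with Benjamini-Hochberg adjustment at 0.05 called 0.0355% higher and 0.0311% lower. With the replicate number as a block it called 0.249% higher and 0.284% lower, and again 0 of the 16. The smallest adjusted p in limma was 0.157, for Tspan33 1451608_a_at, and 0.0710 with the block, for Tspan33 1455618_x_at. At an unadjusted p under 0.05, limma gave 4 of the 16 higher, all Tspan33, and 3 lower, Cd81 and 2 of Cd151. The shares over all probe sets were 2.39% and 3.45%. With the block 4 were higher and 7 lower, the latter from Cd151, Cd53, Cd81 and Tspan9, where 6.19% and 8.78% of all probe sets were. In both fits the 4 higher probe sets were all of Tspan33, so they share RNA and are not separate members. Of them, 1451609_at passed the filter only through its FOG1 ki/ki arrays, so its direction is not independent of the filter. A probe set that missed the threshold is not thereby shown to be equal between the groups.

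The rest of the family also held large differences in both directions. Of 21 other tetraspanins, 20 had a probe set and 13 passed the filter, of which 6 were above and 7 below control, with a median of -0.04. None passed in limma with or without the block, and 5 had an unadjusted p under 0.05 in each. The shares over all probe sets were 2.39% higher and 3.45% lower without the block, and 6.19% and 8.78% with it. Of these tetraspanins, the 3 with the smallest p were Tspan8, Tspan17 and Tspan6. Tspan8, a tetraspanin of epithelia linked to cell motility, read 101, 68.8 and 45.2 in controls and 266, 699 and 857 in FOG1 ki/ki, a difference of 2.73 (SE 0.46), above that of Tspan33. Tspan17, a C8 tetraspanin like Tspan33, read 52.0, 80.4 and 122 in controls and 14.4, 20.3 and 16.9 in FOG1 ki/ki, a difference of -1.55. Tspan6 read 220, 196 and 395 in controls and 97.3, 84.7 and 74.2 in FOG1 ki/ki, a difference of -1.44. In these 3 genes the groups did not overlap. Of the 13 tested that held for 2 in the higher direction and 3 in the lower, against 6.30% and 4.94% of all genes tested.

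**Figure D4:**
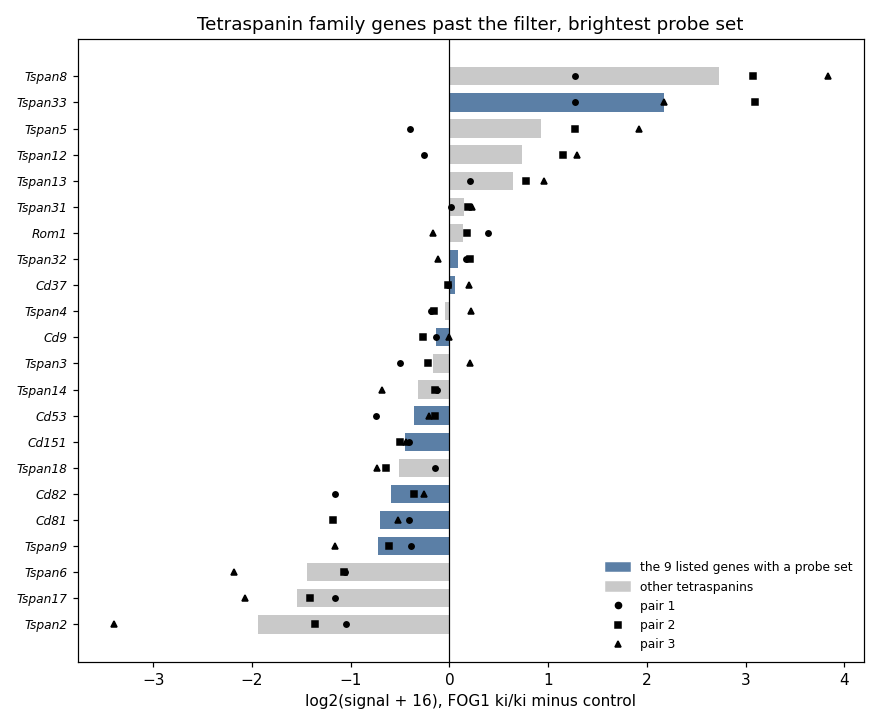
Mean difference in log2(signal + 16), FOG1 ki/ki minus control, of the 22 tetraspanin family genes past the filter (bars), with a symbol for each pair, the 9 genes described here in blue and the others in grey. Tspan8 at 2.73 and Tspan33 at 2.18 lie at one end, and Tspan6, Tspan17 and Tspan2 lie below -1.4 at the other.

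The C8 partners of ADAM10 did not share one direction. Adam10 itself differed little by its brightest probe set, at -0.05. That probe set read 1947, 1799 and 2109 in controls and 1746, 1897 and 2021 in FOG1 ki/ki. Dimmer Adam10 probe sets past the filter differed by -0.39 and -0.36, mostly through pair 3, at -1.13 and -0.91. The groups of the latter did not overlap. Neither had an unadjusted p under 0.05 in limma with or without the block. Beside Tspan33 at 2.18, Tspan17 differed by -1.55, Tspan14, common in platelets and endothelium, by -0.32, and Tspan5 by 0.93 with pair differences of -0.40, 1.27 and 1.92. Tspan10 and Tspan15 were under the filter, with signals of at most 5.80. None of the 4 tested genes of this list passed in limma.

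Among 15 surface partners of tetraspanins, 14 were tested, 3 above and 11 below control with a median of -0.22. In limma without the block 0 passed and 3 had an unadjusted p under 0.05, and with the block 1 was called in each direction. Over all probe sets, 2.39% were higher and 3.45% lower at that unadjusted p without the block. With the block 0.249% were called higher and 0.284% lower. Igsf3, an immunoglobulin-superfamily protein of the family that binds tetraspanins, rose in the blocked fit by 2.06 (limma adjusted p = 0.0295). It read 28.6, 47.8 and 1.36 in controls and 214, 218 and 49.9 in FOG1 ki/ki, so the groups did not overlap. Gp6, the glycoprotein VI collagen receptor, fell in the blocked fit by 1.35 (limma adjusted p = 0.0441). It read 702, 928 and 1500 in controls and 345, 264 and 600 in FOG1 ki/ki, below every control. Itga4, an integrin alpha chain, had the next smallest p and was at 0.73 higher in FOG1 ki/ki, without passing. Itga2b, the alphaIIb chain, was level at -0.07.

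No late endosome or exosome gene, a list that stands for the compartment of CD63, passed the test. All 12 were tested, 5 above and 7 below control with a median of -0.05, and by their brightest probe sets 0 passed or had an unadjusted p under 0.05 in limma with or without the block. Dimmer probe sets did not all match these: of the 4 for Lamp2, the brightest differed by -0.11, while others at -0.47 and -0.60 had groups that did not overlap and an unadjusted p under 0.05, with limma adjusted p of 0.685 and 0.573 (0.0857 and 0.0773 with the block). A dimmer Sdcbp probe set differed by -0.36, with a limma adjusted p of 0.211 with the block. Without the block, the 3 genes with the smallest limma p by brightest probe set were Sdcbp, Lamp1 and Rab27b, at -0.20, -0.24 and 0.12. They encode syntenin, a lysosomal membrane protein and a granule-docking GTPase. With the block the smallest unadjusted limma p was 0.0507, for Pdcd6ip at -0.24.

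The genes whose log2(signal + 16) followed Tspan33 most closely over the 6 arrays were the amino acid transporter gene Slc38a5 (Pearson r = 0.987), the adhesion receptor gene Adgrd1 (0.986), Nol10 (0.983), Fhit (0.979) and Pxmp4 (0.973). Slc38a5 read 10.4, 7.80 and 1.59 in controls and 27.4, 179 and 49.3 in FOG1 ki/ki. Each control signal was under the filter at 10.9, so Slc38a5 passed only through its FOG1 ki/ki arrays. Its direction is therefore not independent of the filter. The highest array was the same as for Tspan33, FOG1 ki/ki replicate 2. In all, 24 of 11283 genes had an r above 0.95. Any gene that differs between the groups and is highest on that array scores high in this measure, and nothing about shared function or control follows from it.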

How the data were processed

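Expression was measured on 6 arrays, 3 control and 3 FOG1 ki/ki. The authors deposited 1 intensity per probe set, on a linear scale. The submitters' processing notes name MAS5, and its version and a genome build are not given in the sources used here. RNA was amplified with NuGEN kits, per the labels' protocols. The trimmed mean of each array, leaving out 2% at each end, was 150, the mark of a common scaling target, and a change in total RNA per cell cannot show. Array medians ranged from 5.93 to 12.3. Precision is limited by the number of arrays.

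Of 45101 probe sets, 64 control probe sets were left out. Intensities were analysed as log2(signal + 16) after the lower 50% of probe sets by mean had been left out, so that 22518 probe sets and 11284 genes were tested. Each gene stood by its brightest probe set naming it alone, by the platform annotation paired with the value table. The groups were compared with limma 3.58.1 under R 4.3.3 (a linear fit and eBayes with a trend, Benjamini-Hochberg adjustment, two-sided, threshold 0.05), which was also tested on simulated data. Python 3.11.15 with pandas 2.3.3, numpy 2.4.6 and matplotlib 3.10.9 did the rest. P-values measure the spread between these cultures only.

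The labels number the replicates of both groups from 1 to 3. After each group's mean had been subtracted, arrays of equal number correlated at 0.436, 0.647 and 0.596 over the probe sets tested, and arrays of unequal number at 0.0208 or lower, which the centring within groups partly builds in. The numbers were therefore read as pairing the arrays. A fit blocked on that number is quoted where it changes a call. The standard errors beside the differences above are from the fit without the block. With the block, those of the brightest probe sets were 0.08 for Cd9, 0.09 for Cd151, 0.16 for Cd81 and 0.25 for Cd82. They were 0.10 for Cd37, 0.14 for Cd53, 0.16 for Tspan9, 0.10 for Tspan32 and 0.35 for Tspan33.

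The tetraspanins and the gene lists were chosen with earlier results of these data known. All 10 tetraspanins were named, and of each other list the genes past the test, otherwise up to 3 with the smallest unadjusted p. Tspan2, Tspan14, Tspan5, Adam10, Itga2b, Lamp2, Pdcd6ip and the single marker genes were named after their values were seen. The neutrophil markers summed to 2824 to 14260 in controls and 4584 to 14451 in FOG1 ki/ki, the endothelial to 71.7 to 183 and 82.5 to 174, and the hepatocyte to 243 to 323 and 110 to 341. The settings varied were the pseudocount, quantile normalization, the filter, the block, the trend, a fit at gene level, and single arrays or both replicate 3 arrays left out.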

Additional observations from a re-analysis of the deposited data

How the results depend on the processing

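The 0 calls among the tetraspanin probe sets held in every setting tried. The count over all probe sets, 15, was 24 with quantile normalization, 1 with no filter, 4 with the lower 75% left out, 0 without both replicate 3 arrays and 0 to 3 with single arrays left out. With the replicate block it was 120, and in the lists the block changed the calls of Igsf3, Gp6 and the mast cell marker Ms4a2 only. The count of tetraspanins with groups that did not overlap, 1 higher and 0 lower, was 1 lower (Cd81) with quantile normalization, and 2 higher (Tspan32 and Tspan33) and 3 lower (Cd53, Cd81 and Cd82) without both replicate 3 arrays. With single arrays left out it was 1 to 2 higher and 0 to 3 lower. The cause was not tested. Differences kept their sign in all settings except for Cd37 and Tspan32, and each moved by less than 1 SD. Tspan33 ranged from 1.64, with a pseudocount of 64, to 2.51, Cd151 from -0.75 to -0.17, Cd81 from -0.94 to -0.55, Cd53 from -0.65 to -0.16 and Cd9 from -0.26 to -0.04. The median of the other tetraspanins lay near 0 and changed sign, from -0.16 to 0.14. The 3 arrays a group limit the precision, and signal over background limits the dim probe sets.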
